A study of Mus musculus with 3 samples.

Results

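The 53 genes described here encode proteins of the mitochondrial ribosome and of the machinery that brings proteins into mitochondria, measured in mouse ovarian surface epithelial cells. They are all genes whose name on the array began with Mrpl, Mrps, Timm or Tomm followed by a digit. This rule took 61 of 20371 probes, and it was chosen with earlier results of these data known. By name, 29 of the genes belonged to the large subunit (Mrpl) and 13 to the small subunit (Mrps) of the ribosome. Another 10 were genes of the inner membrane translocases and their carriers (Timm), and 1 of the outer membrane translocase (Tomm40). Subunits are given by gene name throughout, and the place of each protein in the ribosome was not checked. All 53 entered the test, out of 17579 features with a value.

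The cells came from 3 separate cultures of ovarian surface epithelium, a single cell sheet around the ovary, taken from superovulated and mated C57/Bl6 females. Each culture was divided, and a part was kept epithelial in 2.5% fetal bovine serum (FBS) while the other was held for 1 week in 15% FBS, in which the cells became mesenchymal. At 80% confluence RNA was taken from both parts, amplified and hybridised on 2-colour Agilent arrays, with 2 arrays per culture in opposite dye orientation and 6 arrays in all. Serum concentration and phenotype differed together in every culture, so their parts in any difference cannot be told apart.

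Every value below is a log2 ratio between the parts of a culture, and above 0 a gene was higher in the mesenchymal part. Each is the mean ± SD over cultures (n = 3 unless stated), each culture being the mean of its 2 arrays. Adjusted p-values are from limma with Benjamini-Hochberg adjustment over all 17579 features, and a gene was called at an adjusted p under 0.05. With 3 cultures, their number limits the precision. The RNA came from whole cultures, in which fewer cells of a type and less RNA per cell cannot be told apart.

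Mitochondria hold their own ribosome, which translates only the few proteins encoded by mitochondrial DNA, all of them subunits of the respiratory chain and ATP synthase. Its proteins, like nearly all mitochondrial proteins, are encoded in the nucleus, made in the cytosol and imported. Import passes through the TOM complex of the outer membrane. The small TIM chaperones then carry hydrophobic proteins to the TIM22 complex for insertion into the inner membrane, while the TIM23 complex and its motor pull others into the matrix.

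The labelled cell type was set against its markers first. All 9 measured markers of ovarian surface epithelium and mesothelium were above the 95th percentile of the negative control spots for both RNAs on all 6 arrays, and 6 of them were called lower in mesenchymal cells. At an unadjusted p under 0.05 in limma, 7 of the 9 were lower and 2 higher, where all features had 11.4% and 12.3%. The 2 were Cdh1 (0.23 ± 0.06, above 0 on all 6 arrays) and Cdh2 (0.31 ± 0.27), neither called. The summed background-subtracted signal of the 9 ran from 261200 to 383800 for epithelial and from 122000 to 242500 for mesenchymal RNA. Markers of other cell types were above the same level too, for both RNAs on all arrays: 6 of 7 of granulosa cells, 6 of 7 of theca and stroma, 3 of 3 of endothelium, 3 of 3 of leukocytes, 4 of 4 of smooth muscle and 6 of 6 of oocytes. This level therefore does not tell the surface epithelium from other cells. The summed signals of these lists were lower, at most 50020 in epithelial and 48180 in mesenchymal RNA for theca and stroma, the brightest of them, over lists of different genes. Of 7 granulosa markers 2 were called lower and of 7 markers of theca and stroma 1, while none of the 3 endothelial, 3 leukocyte and 4 smooth muscle markers was called in limma, with 2, 0 and 2 of them at an unadjusted p under 0.05. Of 6 oocyte markers Ddx4 was called higher. Of 5 markers of dividing cells, Mki67 was lower (-0.35 ± 0.08, adjusted p = 0.0284) and the others were not called. The list did not move 1 way, and its median was 0.16. At an unadjusted p under 0.05 in limma, Mki67 was lower and 2 were higher, Ccnb1 (0.48 ± 0.34) and Pcna (0.26 ± 0.22). The part of cell makeup and of division in the differences below was not tested.

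The promoters of some genes that rose are printed here, because letters recognised by factors of mitochondrial gene expression are often found there. RefSeq windows of 300 bases, 250 before to 50 after each start in build GRCm38.p6, were held for 48 of the 53 genes. They were searched on both strands for CGCNTGCGC, an NRF1-type motif, and for a longer form with 1 more G before it, of which the first is a part. Of the 48 genes, 9 (18.8%) held the longer form, as did 5.19% of the 27025 genes with a window and 11.6% of the 7004 that were also tested on the array. The shorter form was held by 12 of 48 (25.0%), by 7.03% of all genes and by 15.6% of those tested. These shares describe letters in a window, not sites in use.

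Shown are the 250 bases before the start of 4 genes that rose, hold such letters and have no opposite promoter in the window, with the NRF1-type letters in capitals. Mrpl45 lies at chr11:97315466-97315715 on the plus strand, Mrpl17 at chr7:105811088-105811337 on the minus strand, Mrpl39 at chr16:84735245-84735494 on the minus strand and Mrpl10 at chr11:97041332-97041581 on the plus strand. Each is given 5′ to 3′ in the sense of its gene.
Mrpl45: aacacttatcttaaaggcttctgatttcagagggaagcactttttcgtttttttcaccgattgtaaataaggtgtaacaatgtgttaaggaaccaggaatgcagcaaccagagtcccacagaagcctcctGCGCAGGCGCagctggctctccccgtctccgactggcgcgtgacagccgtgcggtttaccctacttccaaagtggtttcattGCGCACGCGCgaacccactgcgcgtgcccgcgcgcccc
Mrpl17: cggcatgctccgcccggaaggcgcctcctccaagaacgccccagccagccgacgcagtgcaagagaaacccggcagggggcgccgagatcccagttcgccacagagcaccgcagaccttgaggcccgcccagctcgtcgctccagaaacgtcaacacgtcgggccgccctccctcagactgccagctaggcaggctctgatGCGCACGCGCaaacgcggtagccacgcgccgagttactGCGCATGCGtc
Mrpl39: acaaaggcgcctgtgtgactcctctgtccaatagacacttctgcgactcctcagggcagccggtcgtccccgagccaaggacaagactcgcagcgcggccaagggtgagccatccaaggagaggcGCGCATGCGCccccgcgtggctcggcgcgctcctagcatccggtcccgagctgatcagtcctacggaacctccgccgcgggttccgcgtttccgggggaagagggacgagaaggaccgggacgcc
Mrpl10: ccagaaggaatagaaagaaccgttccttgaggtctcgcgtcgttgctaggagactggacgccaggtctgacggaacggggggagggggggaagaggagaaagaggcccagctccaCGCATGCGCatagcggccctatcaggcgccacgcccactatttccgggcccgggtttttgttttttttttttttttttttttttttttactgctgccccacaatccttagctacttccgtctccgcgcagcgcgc
In Mrpl45 the capitals begin 120 and 38 bases before the start, in Mrpl17 49 and 11, in Mrpl39 125, and in Mrpl10, which holds only the shorter form, 135. The 2 import genes that passed the test, and in opposite directions, are shown for comparison. Timm10 lies at chr2:84826771-84827020 on the plus strand and Timm8a1 at chrX:134541671-134541920 on the minus strand. Neither holds any of the letters searched in these 250 bases, but Timm10 holds the ETS-type letters in the 50 bases after its start, which are not shown.
Timm10: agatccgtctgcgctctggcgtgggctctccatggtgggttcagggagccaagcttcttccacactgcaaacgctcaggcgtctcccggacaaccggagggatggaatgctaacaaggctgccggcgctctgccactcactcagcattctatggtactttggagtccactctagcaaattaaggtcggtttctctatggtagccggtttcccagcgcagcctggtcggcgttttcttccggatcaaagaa
Timm8a1: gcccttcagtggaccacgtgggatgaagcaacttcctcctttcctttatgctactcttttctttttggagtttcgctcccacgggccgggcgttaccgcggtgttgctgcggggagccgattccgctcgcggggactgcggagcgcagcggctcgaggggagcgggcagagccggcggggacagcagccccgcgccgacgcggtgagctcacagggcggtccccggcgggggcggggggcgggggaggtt
The ETS-type letters CCGGAAGT, or ACTTCCGG as their reverse complement, were in 6 of 48 members (12.5%), 4.31% of all genes and 9.28% of those tested. The YY1-type letters AAGATGG were in 9 of 48 (18.8%), 7.28% of all and 8.57% of those tested, and the same letters followed by CGGC in 3 (6.25%), 0.755% and 1.84%. Of 41 genes picked by names of cytosolic ribosomal proteins that had a window, 1 (2.44%) held the longer NRF1-type form. Among the members themselves, 5 of the 17 genes with a window that rose (29.4%) held it. So did 4 of the 30 that were not called (13.3%), which is a description with no test. Those 4 were Mrpl9 (-0.22 ± 0.18), Mrpl44 (-0.15 ± 0.08), Mrpl12 (0.29 ± 0.23) and Timm8b (0.10 ± 0.85). The letters were thus also held by genes that lay below 0. The NRF1-type letters are mostly G and C, and the sets differed in base composition. The median share of G and C in a window was 63.3% for members that rose and 57.7% for those not called. It was 58.7% for all members, 60.7% for genes tested and 52.7% for all promoters. The part of base composition in these shares was not tested.

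Many of these genes start close to another gene on the opposite strand. For 17 of 48 members (35.4%) the window overlapped that of a gene on the other strand, against 11.9% of all genes and 18.4% of those tested. In 10 of the 17 the opposite gene was also tested, and 1 of those was called, where 11.9% of all features were called in either direction. That 1 was Mrpl46, itself a large subunit gene, which shares its start region with the small subunit gene Mrps11. Mrpl46 rose by 0.47 ± 0.20 (adjusted p = 0.0273), and Mrps11 had 0.33 ± 0.24 (adjusted p = 0.107). Mrpl43 faces Twnk, the helicase of mitochondrial DNA, at 0.07 and 0.12, and Timm8b faces Sdhd, a subunit of succinate dehydrogenase, at 0.10 and 0.07, none of them called. The tested genes opposite members that rose were not called either. They were Mitd1 (0.15) for Mrpl30, Psma2 (0.19) for Mrpl32, Zfp661 (0.07) for Mrps5 and Gga3 (0.08) for Mrps7.

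Genes of the mitochondrial ribosome were mostly somewhat higher in mesenchymal cells. Those of protein import were spread to both sides of 0, with 8 of 11 above it and a median of 0.10. Of the 53 members, 19 rose and 1 fell, and 33 were not called. Over all features 5.96% were called higher and 5.92% lower, and among the members 35.8% and 1.89%. The members' median was 0.24, against 0.00 over all features, and 47 of 53 lay above 0, against 49.1% of all features. By culture the members' medians were 0.28, 0.24 and 0.24. In 32 of 53 (60.4%) all measured cultures were above 0, as in 22.9% of all features, and in 5 all were below. The rises were small, from 1.23-fold for Mrpl39 to 1.67-fold for Mrpl45.

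The number of calls depended on which cultures entered, for the members and for all features. Without culture 1, 32 members were called (28 higher, 4 lower), 61.5% against 32.2% of all features. Without culture 2, 8 were called, all higher (15.4% against 7.24%). Without culture 3 only 2 were, Mrpl11 and Mrps18a (3.92% against 4.92%). The median over members was 0.25, 0.25 and 0.29 in these fits. Cultures 2 and 3 were the more alike: over the 51 members measured in all cultures their log2 ratios correlated with r = 0.86, against 0.23 for cultures 1 and 2 and 0.27 for cultures 1 and 3, a description over genes that share arrays.

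**Figure D1:**
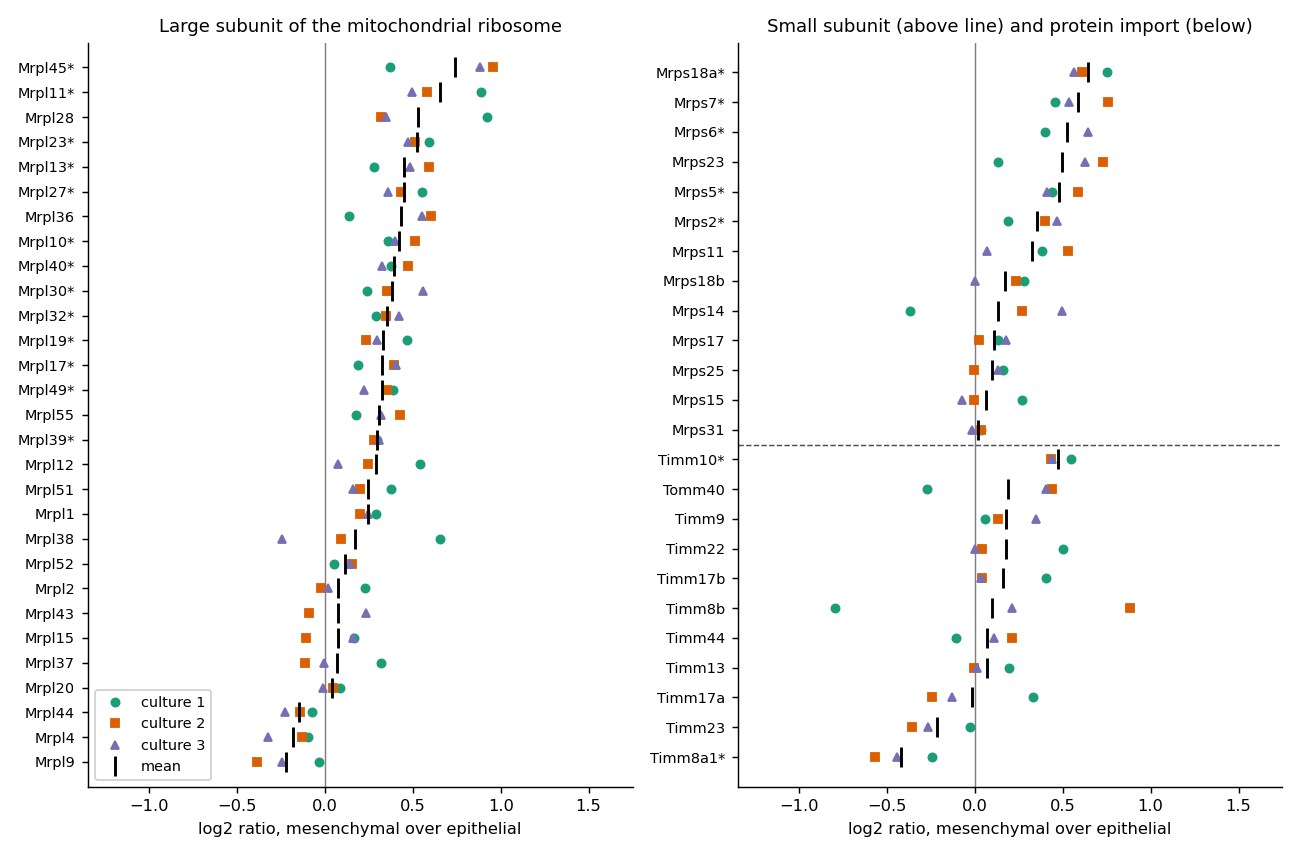
Each row is 1 gene, with its log2 ratio (mesenchymal over epithelial) in cultures 1 (circle), 2 (square) and 3 (triangle) and the mean (bar); an asterisk marks an adjusted p under 0.05. Most ribosome genes lie to the right of 0, from Mrpl45 at 0.74 to Mrpl9 at -0.22 and from Mrps18a at 0.64 to Mrps31 at 0.02, while the import genes run from Timm10 at 0.47 to Timm8a1 at -0.42.

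The large subunit carries the peptidyl transferase center and the exit tunnel that faces the inner membrane. Of the 29 genes named for it (Mrpl), 13 rose and none fell in limma. At an unadjusted p under 0.05 there were 19 higher (65.5%) and 1 lower (3.45%). Over all features 12.3% were higher and 11.4% lower at that p. The median was 0.31, and 26 of 29 lay above 0. Mrpl45, whose protein sits at the tunnel exit and ties the ribosome to the membrane, had log2 ratios of 0.37, 0.96 and 0.88 in cultures 1, 2 and 3. All 3 cultures were above 0, with culture 1 the lowest, and the mean was 0.74 ± 0.32 (adjusted p = 0.0149). A dimmer second probe of Mrpl45 gave 0.65 ± 0.16 (adjusted p = 0.00661 in a fit of all 20185 probes, of which 11.3% were called), with culture 1 the highest at 0.81. Without culture 3 the call of the brighter probe was lost.

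Mrpl11, a protein of the stalk base where translation factors bind, had 0.89, 0.58 and 0.49 in cultures 1, 2 and 3. Every one of its 6 arrays was above 0, and the mean was 0.65 ± 0.21 (adjusted p = 0.00863). Mrpl23 had 0.59, 0.51 and 0.47, with a mean of 0.53 ± 0.06 (adjusted p = 0.00609). Its cultures lay close together and all 6 arrays were above 0. Mrpl27 (0.45 ± 0.10), Mrpl10 (0.42 ± 0.08), Mrpl17 (0.33 ± 0.12) and Mrpl49 (0.32 ± 0.09) also rose with all 6 arrays above 0 (adjusted p from 0.0138 to 0.0466). Mrpl10, the protein that anchors the stalk, had 0.36, 0.52 and 0.40 by culture.

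The other large subunit genes that rose were less even between dyes. Mrpl13 (0.45 ± 0.16), Mrpl40 (0.39 ± 0.08), Mrpl30 (0.38 ± 0.16), Mrpl32 (0.35 ± 0.07), Mrpl19 (0.33 ± 0.12) and Mrpl39 (0.29 ± 0.01) had adjusted p-values from 0.0187 to 0.0441, and 1 to 3 of their 6 arrays lay below 0. Mrpl32, whose maturation by a mitochondrial protease is a step in ribosome assembly, had 0.29, 0.35 and 0.42 by culture. For Mrpl19, 2 dimmer probes gave 0.07 ± 0.15 and 0.05 ± 0.06, neither called. The rise of Mrpl19 thus rests on its brightest probe. Without culture 2 or without culture 3, the calls of Mrpl10, Mrpl13, Mrpl17, Mrpl19, Mrpl27, Mrpl30, Mrpl32, Mrpl39, Mrpl40 and Mrpl49 were lost, and that of Mrpl23 without culture 3. Mrpl19, Mrpl39 and Mrpl49 also lost their calls with the authors' table, the scanner software's ratios, median centring, and a trended and robust variance. Mrpl17 lost its call with median centring, that variance, and every probe as a feature, and Mrpl30, Mrpl39, Mrpl40 and Mrpl49 with culture as a random block.

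Several large subunit genes came close to the threshold. Mrpl28 had 0.92, 0.32 and 0.35 by culture and a mean of 0.53 ± 0.34 (adjusted p = 0.0529), with all 6 arrays above 0 and culture 1 far above the others. Mrpl36 had 0.14, 0.60 and 0.55 (adjusted p = 0.0548), with culture 1 the lowest, and Mrpl55 had 0.17, 0.43 and 0.32 (adjusted p = 0.0597). So culture 1 was the high one for Mrpl28 and the low one for Mrpl36 and Mrpl55. Mrpl51 (0.25 ± 0.12) and Mrpl1 (0.24 ± 0.05) were not called though all 6 arrays were above 0.

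The brightest large subunit probes were those of Mrpl20 and Mrpl12. Mrpl12, a stalk protein also known to bind the mitochondrial RNA polymerase, had 0.54, 0.25 and 0.08 by culture (mean 0.29 ± 0.23, adjusted p = 0.147). On 4 arrays its spot was saturated in the mesenchymal channel only, which makes the ratio smaller. Mrpl20, a protein that folds ribosomal RNA, had 0.04 ± 0.05 (adjusted p = 0.808) with saturation in the epithelial channel on 1 array and in the mesenchymal channel on 3. The 3 large subunit genes below 0, Mrpl9 (-0.22 ± 0.18), Mrpl4 (-0.18 ± 0.12) and Mrpl44 (-0.15 ± 0.08), were below 0 in every culture, and none passed the test (adjusted p from 0.201 to 0.299).

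The small subunit reads the messenger RNA. Of the 13 genes named for it (Mrps), Mrps18a among them, 5 rose and none fell in limma. At an unadjusted p under 0.05 there were 7 higher (53.8%, against 12.3% of all features) and 0 lower (against 11.4%). The median was 0.33 and all 13 lay above 0. Mrps18a, 1 of several mitochondrial relatives of bacterial S18, had 0.75, 0.61 and 0.56 in cultures 1, 2 and 3. All 6 arrays were above 0, and the mean of 0.64 ± 0.10 was 1.56-fold (adjusted p = 0.00382). Its relative Mrps18b, the brightest Mrps gene, had 0.17 ± 0.15 (adjusted p = 0.290), and Mrps15, the next brightest, 0.06 ± 0.18 (adjusted p = 0.781).

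Mrps7, an assembly protein of the head of the small subunit, had 0.46, 0.76 and 0.54 by culture (mean 0.58 ± 0.16, adjusted p = 0.00827). A second, much dimmer probe of Mrps7 gave -0.02 ± 0.07 (adjusted p = 0.933 over all probes), so the 2 probes disagreed. The rising probe was saturated for mesenchymal RNA on 1 array, and its call was lost without culture 3. Mrps5 (0.48 ± 0.10, adjusted p = 0.0106) rose with 5 of 6 arrays above 0, as did Mrps2 (0.35 ± 0.15, adjusted p = 0.0448). Both calls were lost without culture 2 and without culture 3, and that of Mrps2 also with median centring and with a trended and robust variance. Mrps6 was measured in cultures 1 and 3 only, at 0.40 and 0.65 (0.52 ± 0.17, n = 2, adjusted p = 0.0368 in limma's fit across all features). Its arrays did not hold together: those with epithelial RNA in Cy3 read -1.86 and -1.90, and those with epithelial RNA in Cy5 read 2.66, 3.70 and 3.19.

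Of the small subunit genes that were not called, Mrps23 was the highest, at 0.13, 0.73 and 0.62 by culture (adjusted p = 0.0547). Culture 1 was again the lowest. Mrps14 had -0.37, 0.27 and 0.49, so its cultures lay on both sides of 0. Mrps17, Mrps25, Mrps15 and Mrps31 lay between 0.02 and 0.11, and Mrps11 and Mrps18b, whose values are given above, were higher.

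The names of ribosomal proteins carry a second division. Proteins with lower numbers are named after bacterial relatives, up to Mrpl36 and Mrps21, and those with higher numbers are found in mitochondrial ribosomes without a bacterial relative. Of 28 members with lower numbers 14 rose (median 0.34), and of 14 with higher numbers 4 rose (median 0.21). Those 4 were Mrpl39, Mrpl40, Mrpl45 and Mrpl49. In both classes 92.9% of genes lay above 0. This split was made after the values were seen, and the difference between the classes was not tested.

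Protein import genes gave 1 rise and 1 fall in 11, both among the small TIM chaperones. That was 9.09% each way, against 5.96% higher and 5.92% lower over all features. At an unadjusted p under 0.05 in limma 1 was higher and 2 were lower, where all features had 12.3% and 11.4%. The median of the 11 was 0.10, and 8 of them lay above 0, against 49.1% of all features. Timm10, which forms a ring with Timm9 to carry membrane proteins across the intermembrane space, had 0.55, 0.43 and 0.44 in cultures 1, 2 and 3. All 6 arrays were above 0, from 0.33 to 0.73, and the mean was 0.47 ± 0.07 (adjusted p = 0.00920), a rise of 1.39-fold. Timm8a1, the mouse relative of the gene mutated in deafness-dystonia syndrome, had -0.25, -0.57 and -0.44. All 6 of its arrays were below 0, from -0.84 to -0.23, and the mean was -0.42 ± 0.16 (adjusted p = 0.0281). Its probe was saturated for epithelial RNA on 1 array. Without culture 3 neither of these calls remained, and without culture 2 that of Timm8a1 was lost.

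The partners of these proteins did not pass the test over 3 cultures. Timm9 had 0.06, 0.13 and 0.35 (adjusted p = 0.274), with 3 arrays on each side of 0, and was called higher without culture 1 (0.24). Timm13, which forms a ring with Timm8a1, had 0.07 ± 0.11 (adjusted p = 0.711). Timm8b had -0.80, 0.88 and 0.21, the widest spread of any member, and its dimmer probe also spread from -0.39 to 0.15. These 5 genes of 1 chaperone family thus ran from -0.42 to 0.47.

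On the array the small TIM genes carry older names. The probe labelled Timm13a is the gene now called Timm10, Timm10 is now Timm9, Timm9 is now Timm13 and Timm8a is now Timm8a1, by the gene ID in the array file. A reader of the array names would therefore assign the rise of Timm10 to another protein.

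None of the inner membrane translocase genes passed the test over 3 cultures. Timm23, the channel of the TIM23 complex and the brightest Timm gene, had -0.03, -0.36 and -0.26 (adjusted p = 0.204), with saturation in the epithelial channel on 2 arrays and in the mesenchymal channel on 1. Without culture 1 Timm23 was called lower, at -0.31. Timm17a, its partner in the channel, had 0.33, -0.24 and -0.13 (adjusted p = 0.967), and Timm17b, the other form, 0.16 ± 0.21 (adjusted p = 0.420). For both, culture 1 was the highest. Timm44, which holds the import motor at the channel, had 0.07 ± 0.16 (adjusted p = 0.739). Timm22, the channel for carrier proteins, had 0.50, 0.04 and -0.00 (adjusted p = 0.443), and its dimmer probe -0.04 ± 0.02. Tomm40, the outer membrane pore through which nearly all imported proteins pass, had -0.27, 0.44 and 0.40 (mean 0.19 ± 0.40, adjusted p = 0.553), and without culture 1 it was called higher, at 0.42.

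The arrays of a culture differed by dye for many of these genes, as for many others on the array. The dye effect is the log2 ratio of Cy5 over Cy3 averaged over both orientations, in which a difference between the cells cancels. It was called in 36 of 53 members, against 57.1% of all features, with 25 negative (47.2%) and 11 positive (20.8%), where 29.1% and 28.0% of all features were. It exceeded the group ratio in size in 32 of 53 (60.4%), a smaller share than the 70.2% of all features. On arrays with epithelial RNA in Cy3 the members' medians were 0.14, 0.01 and -0.06 for cultures 1, 2 and 3, with 30, 29 and 24 members above 0. With epithelial RNA in Cy5 they were 0.38, 0.42 and 0.45, with 43, 40 and 40 above 0. The members' medians were thus higher in 1 orientation than in the other, while those of all features lay between -0.04 and 0.02 on every array. Every call here rests on the mean of both orientations, in which a dye effect that is the same on both arrays of a culture cancels.

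Single genes show the same. With only the arrays that had epithelial RNA in Cy3, Mrpl13 (-0.87), Mrpl30 (-0.74), Mrpl32 (-0.52), Mrps6 (-1.88) and Mrps7 (-0.61) were called lower, the reverse of the mean over both dyes. Mrpl19 (-0.13) and Mrpl39 (-0.24) also turned below 0 there. In the same arrays Timm44 (-0.32), Timm9 (-0.85) and Tomm40 (-0.99) were called lower, and with epithelial RNA in Cy5 alone they were called higher, at 0.45, 1.21 and 1.37. From both dyes together none was called. By contrast the dye effects of Timm10 (0.01), Mrpl17 (-0.03), Mrpl49 (-0.04) and Mrpl27 (0.05) were near 0. Taking each orientation alone, 15 members (28.3%) were called higher and 13 (24.5%) lower with epithelial RNA in Cy3, against 18.2% and 21.8% of all features. With it in Cy5, 30 (56.6%) were called higher and 3 (5.66%) lower, against 19.6% and 13.9%.

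**Figure D2:**
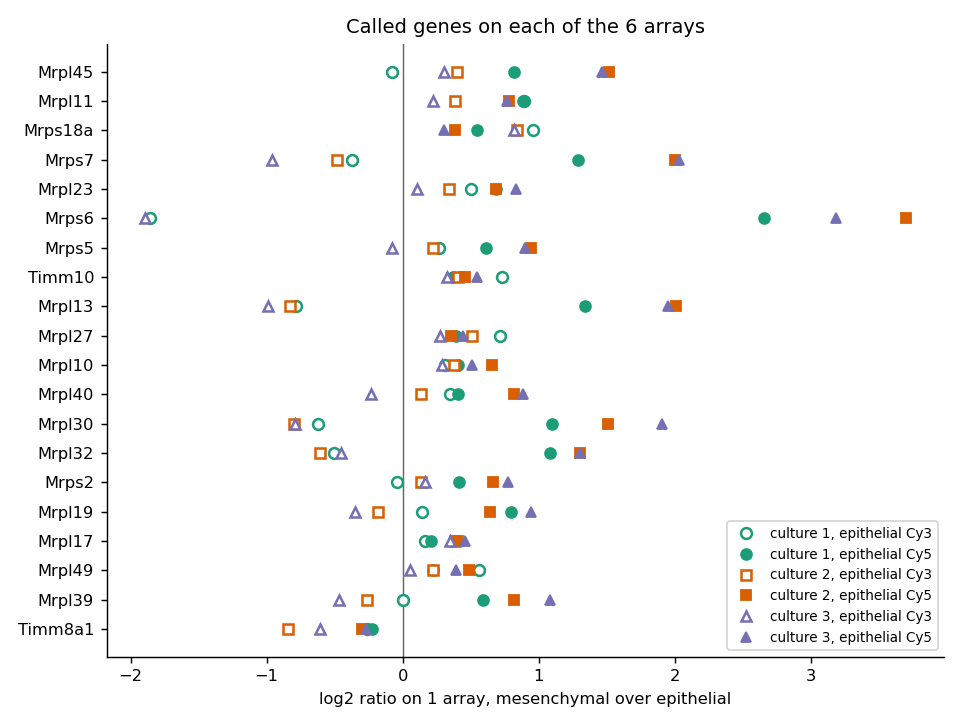
Each row is 1 of the 20 members with an adjusted p under 0.05, with its log2 ratio (mesenchymal over epithelial) on each array: open symbols have epithelial RNA in Cy3 and filled ones in Cy5, with circles, squares and triangles for cultures 1, 2 and 3. Mrps6 splits by dye, from -1.90 to 3.70, while Timm10 and Mrpl17 hold together and Timm8a1 is below 0 on all 6 arrays.

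The genes with the same sign on every array do not rest on 1 orientation. There were 11 members above 0 on all measured arrays, against 5.94% of all features, and 1 below 0 on all, against 5.76%. The 11 were Mrpl1, Mrpl10, Mrpl11, Mrpl17, Mrpl23, Mrpl27, Mrpl28, Mrpl49, Mrpl51, Mrps18a and Timm10, and the 1 was Timm8a1. Of the 11, 8 were called higher, all but Mrpl1, Mrpl28 and Mrpl51.

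**Figure D3:**
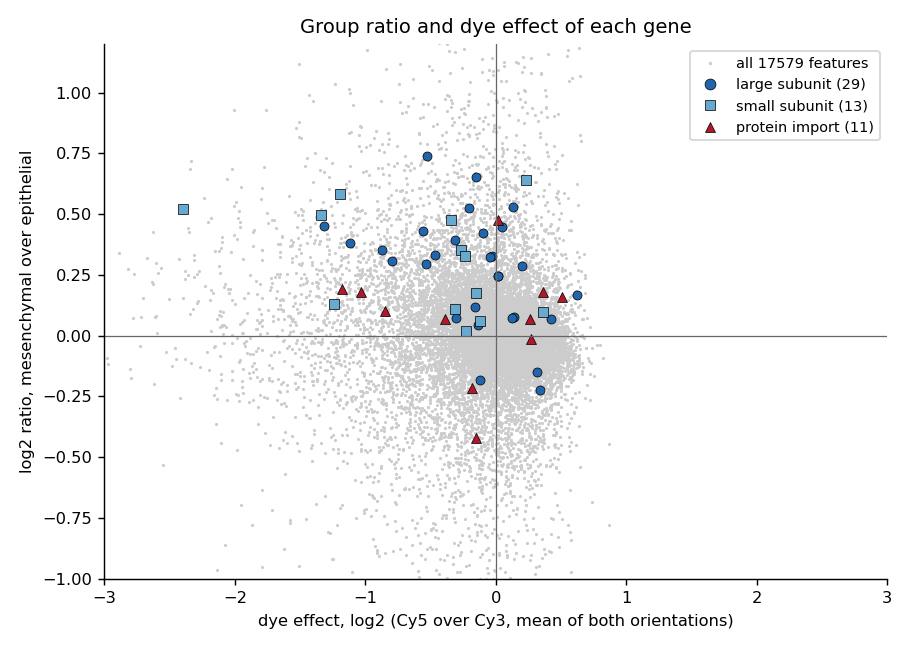
Each point is a gene, with its dye effect (log2, Cy5 over Cy3) on the horizontal axis and its log2 ratio (mesenchymal over epithelial) on the vertical; grey points are all 17579 features, of which those outside the axis limits are not drawn. Members lie mostly above 0 on the vertical axis and many lie far to the left, Mrps6 farthest at -2.40, while Timm10 (0.01) and Mrpl27 (0.05) have almost no dye effect.

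The same protein families under other array names were set beside the members. Another 20 genes now named as ribosomal or translocase proteins appeared on the array under older names, mostly clone names, and so were not members. Of these 5 rose and none fell in limma, and at an unadjusted p under 0.05 there were 10 higher and 1 lower, where all features had 12.3% and 11.4%. Their median was 0.21 and 17 of 20 lay above 0. All 12 genes among them that are named as ribosomal were above 0. Mrpl58, a peptidyl-tRNA hydrolase built into the large subunit, rose the most, with 0.53, 0.67 and 0.56 by culture (0.59 ± 0.08, adjusted p = 0.00436). Mrps36 (0.46 ± 0.03), Mrpl46 (0.47 ± 0.20) and Mrpl18 (0.43 ± 0.14) also rose, of which the Mrps36 protein has since been placed in the oxoglutarate dehydrogenase complex. A separate list of ribosome subunits with names of other kinds had 5 measured genes, Mrpl58 again among them. Of these 1 (20%) rose and none fell, against 5.96% and 5.92% of all features, and the median was 0.18. Dap3 (0.19 ± 0.06), Ptcd3 (0.18 ± 0.20), Aurkaip1 (0.08 ± 0.16) and Gadd45gip1 (-0.13 ± 0.08) were not called. Gadd45gip1 was below 0 on all 6 arrays.

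Among the 8 import genes under other names, 1 rose: Tomm20, the receptor that recognises import signals, with 0.47, 0.35 and 0.41 by culture (0.41 ± 0.06, adjusted p = 0.0150). Its 2 dimmer probes gave 0.17 and 0.23, neither called. On arrays with epithelial RNA in Cy3 alone Tomm20 was at -0.44. The brightest Tomm20 probe was saturated on 3 arrays for each RNA, and its call was lost with saturated probes left out, with the mean of its probes, with culture as a random block, and without culture 2 or culture 3. Tomm22, the other core receptor, had 0.23 ± 0.35 (adjusted p = 0.386) and Tomm70a, the receptor for carrier proteins, -0.00 ± 0.16 (adjusted p = 1). Timm50, the receptor of the TIM23 complex, had 0.09 ± 0.08 (adjusted p = 0.582), and with epithelial RNA in Cy5 alone -0.46. Over the members and the 20 genes under older names, 22 of 54 genes named as ribosomal, Mrps36 among them, rose (40.7%). None of the 54 fell, and their median was 0.30. Of 19 import genes 2 rose (10.5%) and 1 fell (5.26%), with a median of 0.10 and 13 above 0. Over all features 5.96% rose and 5.92% fell.

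**Figure D4:**
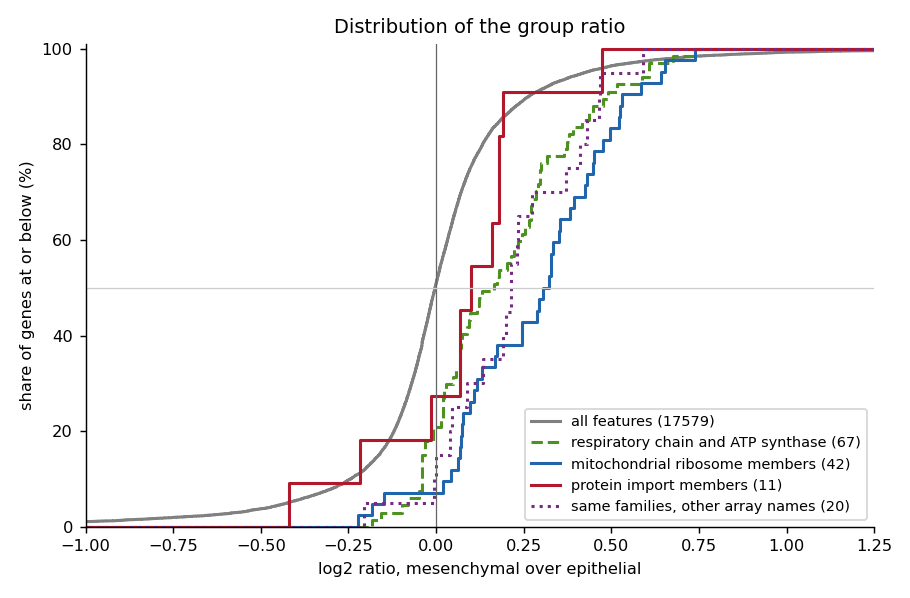
Each line gives the share of genes in a set (vertical, %) whose log2 ratio (mesenchymal over epithelial) is at or below the value on the horizontal axis, with the number of genes in brackets. The line of the ribosome members crosses 50% near 0.31 and that of the genes with respiratory chain and ATP synthase names near 0.17. That of the import members crosses it near 0.10 and that of all features near 0.

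Other genes that serve the same organelle were set beside the same background of 5.96% higher and 5.92% lower. Of 67 genes picked by names of the respiratory chain and ATP synthase, 12 (17.9%) rose and none fell (median 0.17, 53 above 0). They were led by Ndufb2 (0.74 ± 0.17) and Ndufb7 (0.68 ± 0.20). The names also took in assembly factors, of which Ndufaf1 (0.52 ± 0.15) and Ndufaf5 (0.61 ± 0.27) rose, and Ndufs5-ps, named as a pseudogene. At an unadjusted p under 0.05 there were 26 higher and 0 lower, where all features had 12.3% and 11.4%. Of the 67, 33 (49.3%) were saturated on some array and 16 on all 6, for at least 1 RNA. The median of 0.17 is therefore no like measure to set against that of the ribosome members. Of 17 measured genes of mitochondrial rRNA maturation and ribosome assembly, 2 rose and 1 fell. Fastkd2, which binds the large rRNA, had 0.59 ± 0.11 (adjusted p = 0.00515), Trub2, a pseudouridine synthase, had 0.44 ± 0.25 (adjusted p = 0.0465), and Dhx30, a helicase of ribosome assembly, fell by 0.46 ± 0.27 (adjusted p = 0.0482). None of 4 translation factors and none of 8 tRNA synthetases was called in limma, and at an unadjusted p under 0.05 there were 1 and 0.

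Of 15 other genes of import and processing 2 rose. Dnajc15, a co-chaperone of the import motor, had 1.37, 1.48 and 1.37 by culture (1.41 ± 0.06, adjusted p = 0.000241), well above any member. Pmpca, a subunit of the protease that removes import signals, had 0.75 ± 0.08 (adjusted p = 0.00190). Both were above 0 on all 6 arrays. Of 9 mitochondrial proteases Lonp1 fell by 0.44 ± 0.15 (adjusted p = 0.0203) and none rose. Of 13 genes of mitochondrial DNA replication and transcription 2 rose, Hsd17b10, also a subunit of mitochondrial RNase P, by 0.80 ± 0.16 (adjusted p = 0.00294) and Slirp, which stabilises mitochondrial messenger RNA, by 0.66 ± 0.29 (adjusted p = 0.0175).

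Of 14 regulators of mitochondrial gene expression 2 rose, the deacetylase genes Sirt1 (0.42 ± 0.12) and Sirt3 (0.38 ± 0.17). The genes of the factors whose letters were searched in the promoters were not called: Nrf1 had -0.04 ± 0.10, Gabpa, an ETS factor, 0.13 ± 0.47, and Yy1 0.22 ± 0.27. Of 22 matrix enzymes and outer membrane channels, taken as a gauge of mitochondrial content, 2 rose, Idh2 (0.54 ± 0.21) and Suclg1 (0.39 ± 0.16), and the median was 0.11. At an unadjusted p under 0.05 in limma 6 of the 22 (27.3%) were higher and 0 lower, where all features had 12.3% and 11.4%. A difference in mitochondrial content was not tested. The 55 genes picked by names of cytosolic ribosomal proteins had 2 rises, Rpl27a (0.60 ± 0.07) and Rpl22 (0.40 ± 0.20). The names also took in Rps19bp1, named as a binding protein. Of the 55, 45 were saturated on all 6 arrays for at least 1 RNA. Their median of -0.04 is therefore no measure of the cytosolic ribosome to set against the mitochondrial one. Of the members, 6 were saturated on any array and none on all 6.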

How the data were processed

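RNA of 3 divided cultures was measured on 6 2-colour arrays. Per the file headers, the deposited intensities are linear: the mean signal of each spot and the median of its local background. The log10 ratios of Cy5 over Cy3 come from the same Agilent software, per the file headers, after background subtraction and dye normalisation. The authors' deposited table holds log10 ratios that equal the mean of a culture's 2 turned arrays to within 0.0064, and the submitters' processing notes name limma without settings. Both dyes are listed for both RNAs in the labels, so which RNA had which dye, and with it every direction here, rests on how the deposited arrays are named.

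Intensities were corrected with normexp (offset 50) and normalised by loess within each array, with control spots at weight 0, in limma 3.58.1 under R 4.3.3. Arrays were turned to mesenchymal over epithelial and the 2 of a culture averaged, which cancels the dye effect of a probe. Spots flagged as outliers were not used, and both arrays of a culture had to be measured. Saturated spots were kept. A probe needed the well-above-background flag for 1 RNA on at least 4 arrays, and a feature needed 2 cultures. All 61 member probes passed, and all 53 genes were flagged above background for both RNAs on all 6 arrays, a weak test since 26.5% to 81.5% of negative control spots carried the flag in at least 1 channel. On 1 array, that of culture 3 with epithelial RNA in Cy5, 1639 probes carried an outlier flag, where the other 5 arrays had 61 to 467. In all 2104 features rest on 2 cultures. Each gene is its brightest probe, and other probes were fitted apart. Names came from the array's gene IDs through a RefSeq table of GRCm38.p6.

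Each ratio was tested against 0 with lmFit and eBayes, and p-values were adjusted over all features. The test is paired by construction, since the series' design text says that each culture was divided. The dye effect was tested on the unturned ratios in the same way. The fit alone was tried on simulated culture ratios with known changes, and the steps before the fit were not simulated. Named were every called member, the 2 brightest members of each family, members whose probes differ in sign with 1 called, a fixed set of translocase genes, and up to 3 called genes of each other list. Other genes named for their role, their place beside the threshold, their spread or a sign shared by all arrays were chosen after their values were seen. The members and gene lists were chosen with earlier results of these data known. Alternatives covered the background correction, normalisation, filters, saturated and flagged spots, the choice of probe, the variance model, the pairing, each dye orientation alone, the threshold and each culture left out.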

Additional observations from a re-analysis of the deposited data

How the results depend on the processing

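The count of 20 called members (19 higher, 1 lower) stayed between 15 and 23 under the other background corrections, normalisations, filters, spot rules, choices of probe and variance models, under the authors' table and the software's ratios, and with culture as a random block. At an adjusted p under 0.01 it was 5, with 934 of all features. Fitted without the replicate block, that is with the parts of a culture treated as unpaired, 0 members were called in limma (11 at an unadjusted p under 0.05, all higher) and 244 of all features. With epithelial RNA in Cy3 alone 28 members were called (15 higher, 13 lower) and 7046 of all features, and in Cy5 alone 33 (30 higher, 3 lower) and 5882. Leaving out 1 culture gave 2 to 32 members and 826 to 5115 features, and a member median of 0.25 to 0.29. The members' median of 0.24 became 0.21 with the mean of a gene's probes, 0.20 with median centring, 0.085 with epithelial RNA in Cy3 and 0.40 in Cy5, and kept within 0.02 of 0.24 under the other settings. Among named genes called from both dyes or from the orientation alone, the sign turned with epithelial RNA in Cy3 for Mrpl13 (-0.87), Mrpl19 (-0.13), Mrpl30 (-0.74), Mrpl32 (-0.52), Mrpl39 (-0.24), Mrps6 (-1.88), Mrps7 (-0.61), Timm44 (-0.32), Timm9 (-0.85), Tomm20 (-0.44) and Tomm40 (-0.99), and in Cy5 for Timm50 (-0.46). Signs of uncalled values turned in other genes too. Without saturated probes Mrps7 was at -0.016, since its other probe then stood for it. Only Mrpl11 and Mrps18a kept their call in every setting but the unpaired one. The cause of the other changes was not tested. Of the members, 6 met saturation on some array. All members were above the negative control level that was used for the markers. Markers of oocytes and leukocytes passed that level as well, so it cannot show whether low signal limits a member. A limit by low signal was not tested.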
